A study of Mus musculus with 2 samples.

Results

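The genes described here encode the heat shock proteins, J proteins and chaperonin subunits of mouse cells. They were taken from the platform annotation by symbol. A probe set was a member if its only gene symbol began with Hspa, Hspb, Hspd, Hspe1, Hsph, Hsp90a, Dnaja, Dnajb or Dnajc, or with Cct and a digit, or was Tcp1 or Hsf1. Hspa5, Hspa13, Dnajb9, Dnajb11, Dnajc3, Dnajc10 and Dnajc19 were left out. This gave 182 probe sets of 75 genes, out of 18194 genes that have at least 1 probe set with a single symbol. In the annotation used here no probe set carried Hsf1 or Hsp90ab1 as its only symbol, so these genes were not analysed here. The rule goes by symbol and not by location, so 9 of the 75 encode proteins known from mitochondria (among them Hspa9, Hspd1 and Hspe1) and 7 encode J proteins known from the endoplasmic reticulum (ER). Hspbp1 and Hspbap1 entered by their prefix although their products are not small heat shock proteins.

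Messenger RNA was measured in NIH3T3 cells, a line of immortalised fibroblasts from mouse embryos, after infection with a retrovirus that expressed a short hairpin RNA. The CCR4b RNAi culture carried a hairpin against CCR4b, a deadenylase subunit of the CCR4-NOT complex encoded by Cnot6l, and the control RNAi culture carried a control hairpin virus, so both had received a virus and both grew in medium with serum. Each group holds 1 Affymetrix array. The values below therefore carry no replicate error and no test, and a gene called higher or lower was so on these 2 arrays. Whether the infected cells were a pool or a clone is not given in the sources used here.

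Signals are the deposited probe-set intensities in arbitrary units. A gene was called measured if its brighter array reached 8.07 units, the median of all values, which also served as a floor. A gene's log2 ratio is that of CCR4b RNAi over control RNAi on the brightest of its probe sets, by mean log2 signal. The median log2 ratio was -0.07 over 11915 measured genes, with a robust standard deviation (SD) across genes of 0.49, and it was -0.17 in the brightest of 10 equal classes of mean signal. Cnot6l read 43.0 units on the CCR4b RNAi array and 102 units on the control RNAi array, 2.38-fold lower, and all 4 of its probe sets were lower. All 10 fibroblast markers examined were above the floor on both arrays, and their signals summed to 21383 units after CCR4b RNAi and 18040.4 units in the control. Single markers differed in direction, from Sparc at 2.36-fold higher after CCR4b RNAi to Thy1 at 1.70-fold lower. Of markers of other cell types, Epcam (29.5 units after CCR4b RNAi and 19.4 units in the control) and Cd68 (9.42 units after CCR4b RNAi and 24.0 units in the control) were above the floor on both arrays, whereas the other 3 epithelial, 1 blood, 2 endothelial and 2 muscle markers were below it on both.

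Chaperones bind unfolded or partly folded proteins and help them reach or keep their folded state. HSP70 proteins work in cycles of ATP binding and hydrolysis, J proteins deliver clients and stimulate the ATPase of HSP70, and HSP110 proteins and other exchange factors release ADP to reset the cycle. HSP90 acts on late folding intermediates such as kinases and hormone receptors, small heat shock proteins hold aggregation-prone proteins without using ATP, and the ring-shaped CCT chaperonin (also called TRiC) encloses actin, tubulin and other clients. After heat or proteotoxic stress the transcription factor HSF1 binds heat shock elements, inverted repeats of the unit nGAAn, in the promoters of inducible chaperone genes.

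The promoters of 62 of the 75 genes were searched for such elements in RefSeq windows (build GRCm38.p6) running from 250 bases before to 50 bases after an annotated start. The motif of 3 units, GAANNTTCNNGAA or its reverse complement TTCNNGAANNTTC, was present for 4 of the 62 genes (6.45%), namely Hspd1, Hspe1, Hsph1 and Dnajb6, and for 0.662% of all 27025 genes with a window. The motif of 2 units, GAANNTTC or TTCNNGAA, each its own reverse complement and each contained in the longer motifs, was present for 19 of the 62 (30.6%) and for 17% of all genes. The windows below show the longer motif in Hspe1, Hsph1 and Dnajb6, the shorter one in Hspa1b, the classical heat-inducible HSP70 gene, and the shorter one in Cct6a, the chaperonin subunit with the lowest ratio. Capitals mark the matches of the motif named for each window, which is read 5′ to 3′ on the strand of its gene. The Hsph1 window holds 3 matches of the 2-unit motif, and the match outside its longer motif is left in lower case.
Hspe1 promoter, chr1:55087898-55088197, plus strand: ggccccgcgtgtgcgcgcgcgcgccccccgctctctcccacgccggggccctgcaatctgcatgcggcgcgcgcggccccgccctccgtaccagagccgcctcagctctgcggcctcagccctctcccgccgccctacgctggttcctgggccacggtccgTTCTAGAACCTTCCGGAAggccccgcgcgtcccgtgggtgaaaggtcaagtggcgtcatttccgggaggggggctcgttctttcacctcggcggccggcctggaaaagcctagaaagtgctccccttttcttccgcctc
Hsph1 promoter, chr5:149636287-149636586, minus strand: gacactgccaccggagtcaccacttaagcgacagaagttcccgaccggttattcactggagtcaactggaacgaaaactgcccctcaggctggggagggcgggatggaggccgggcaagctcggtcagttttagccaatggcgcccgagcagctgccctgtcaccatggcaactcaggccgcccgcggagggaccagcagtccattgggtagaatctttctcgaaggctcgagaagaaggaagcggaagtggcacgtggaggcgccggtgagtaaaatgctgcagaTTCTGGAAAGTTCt
Dnajb6 promoter, chr5:29735648-29735947, plus strand: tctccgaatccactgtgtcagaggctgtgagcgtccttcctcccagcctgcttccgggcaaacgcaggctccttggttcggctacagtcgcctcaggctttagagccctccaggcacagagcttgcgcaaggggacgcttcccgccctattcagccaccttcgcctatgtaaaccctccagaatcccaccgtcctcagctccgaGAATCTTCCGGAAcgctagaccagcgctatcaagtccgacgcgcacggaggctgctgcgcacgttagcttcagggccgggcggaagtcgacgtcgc
Hspa1b promoter, chr17:34959189-34959488, minus strand: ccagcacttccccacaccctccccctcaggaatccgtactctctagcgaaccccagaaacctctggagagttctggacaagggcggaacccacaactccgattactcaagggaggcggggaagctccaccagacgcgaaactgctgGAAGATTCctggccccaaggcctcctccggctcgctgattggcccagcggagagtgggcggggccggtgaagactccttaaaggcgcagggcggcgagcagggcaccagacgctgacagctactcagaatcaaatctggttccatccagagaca
Cct6a promoter, chr5:129787106-129787405, plus strand: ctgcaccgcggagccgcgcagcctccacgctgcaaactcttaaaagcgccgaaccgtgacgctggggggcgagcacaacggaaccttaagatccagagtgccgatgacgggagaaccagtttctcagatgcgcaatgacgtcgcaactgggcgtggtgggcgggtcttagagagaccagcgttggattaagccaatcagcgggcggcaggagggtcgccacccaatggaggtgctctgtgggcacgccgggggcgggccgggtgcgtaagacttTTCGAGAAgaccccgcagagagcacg

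In the Hspe1 window the capitals join 2 overlapping matches that begin 89 bases before the start. The window of Hspd1 lies on the opposite strand and shares 285 of its 300 bases with that of Hspe1, so both genes hold the same matches. In Hsph1 the 3-unit match begins 36 bases after the start. Measured genes with the 3-unit motif had a median log2 ratio of -0.32 (4 genes) and those of the other genes searched -0.25 (47 genes). For the 2-unit motif the medians were -0.33 (14 genes) and -0.25 (37 genes). Besides Cct6a, the chaperonin genes Cct2 (log2 ratio -0.39), Cct5 (-0.52) and Cct8l1 (not measured) also held the 2-unit motif. A match is a string of letters and does not show that a factor binds there.

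Of the 75 genes, 62 were measured and 58 were above the floor on both arrays. Their median log2 ratio was -0.25, against -0.07 over all measured genes. At a threshold of 1.5-fold, 11 of the 62 were lower on the CCR4b RNAi array (17.7%), where 14.6% of all measured genes were, and 2 were higher, where 11.3% were. The count of lower genes was thus near the background, and it changed with the scaling, with 19 of 62 with both arrays set to a common median (background 19%), 6 after quantile normalization (13%) and 7 after a loess correction (12.6%). At 2-fold, 2 were lower (background 4.48%) and 1 was higher (3.74%). A log2 ratio below 0 was found for 44 of the 62, where 56% of all measured genes had one. Relative to the medians of their signal classes, the 62 members had a median of -0.12, and 40 were below their class median. Without the CCT chaperonin, the median of 54 measured members on that scale was -0.045, and 32 were below. By role, the median log2 ratio was -0.54 for the CCT chaperonin, -0.25 for HSP70 and HSP110 and -0.14 for J proteins. For small heat shock proteins it was 0.05, and their single genes spread widely. This median above 0 rests on Hspb2, which reached the floor only after CCR4b RNAi.

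**Figure D1:**
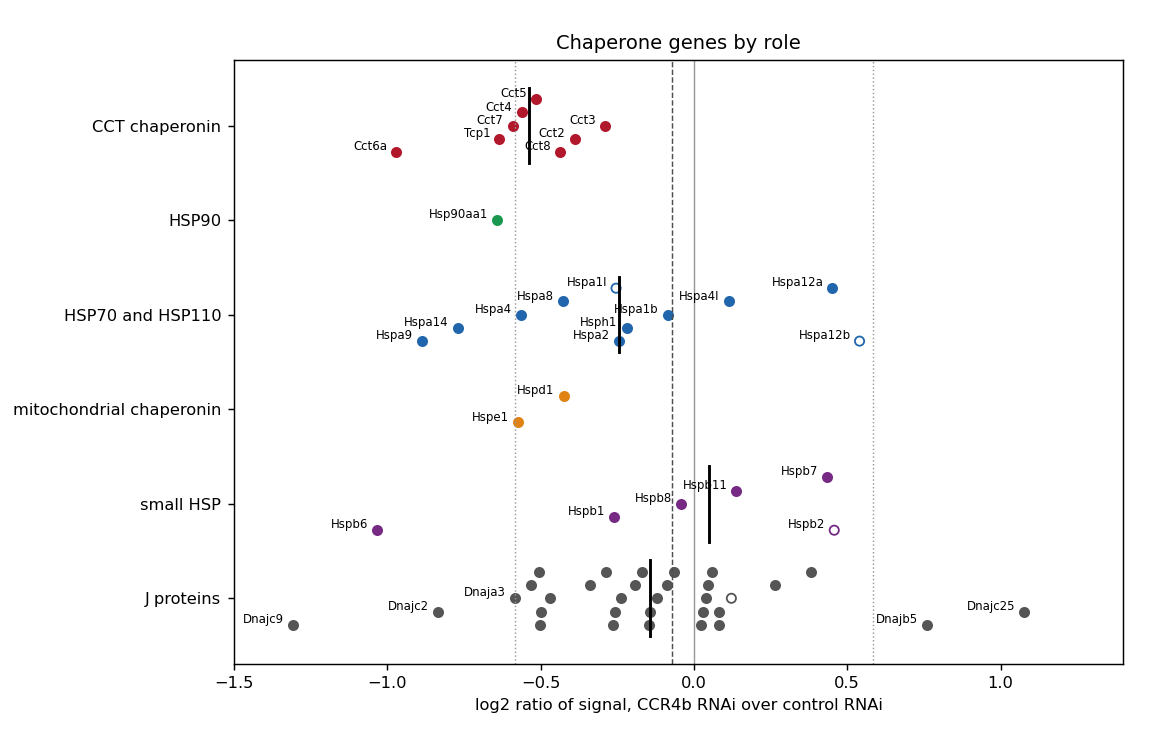
Log2 ratio of signal (x axis, CCR4b RNAi over control RNAi) of each measured gene, with 1 point per gene and 1 row per role. Open points have 1 array below the floor, black bars are medians of roles with over 2 genes, the dashed line is the median of all measured genes (-0.07) and dotted lines mark 1.5-fold; the 8 CCT subunits all lie left of 0, while J proteins spread from -1.31 to 1.08. Hspbp1 and Hspbap1 are not drawn.

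All 8 measured genes of the CCT chaperonin had log2 ratios below 0. Cct6a, the zeta subunit, read 670.3 units on the CCR4b RNAi array and 1314 units on the control RNAi array. It was 1.96-fold lower (log2 ratio -0.97), the lowest of the subunits, and its second probe set was 1.70-fold lower, at 654 units after CCR4b RNAi and 1110 units in the control. Tcp1, which encodes the alpha subunit, read 1089 units after CCR4b RNAi and 1690 units in the control and was 1.55-fold lower. Cct7, the eta subunit, read 635 units after CCR4b RNAi and 956 units in the control and was 1.51-fold lower. These were the 3 subunits past 1.5-fold, and the calls of Tcp1 and Cct7 were lost after quantile normalization and after the loess correction, which left Cct6a as the only one past it.

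The other 5 measured subunits lay short of 1.5-fold on their brightest probe sets. Cct4, the delta subunit, had 1183 units after CCR4b RNAi and 1746 units in the control (log2 ratio -0.56). For Cct5, the epsilon subunit, the values were 951 units after CCR4b RNAi and 1360 units in the control (log2 ratio -0.52). The theta subunit gene Cct8 read 471 units after CCR4b RNAi and 637 units in the control (log2 ratio -0.44). Cct2, the beta subunit, and Cct3, the gamma subunit, differed least, with log2 ratios of -0.39 and -0.29 and with larger differences on their next probe sets (-0.60 and -0.47). The median log2 ratio of the 8 subunits was -0.54, and it stayed between -0.39 and -0.63 over the alternatives tried. In the same direction lay 20 of the 21 measured probe sets of these genes, where 53.4% of all measured probe sets with a single symbol had a log2 ratio below 0. Of the 21, 10 are open to cross-hybridisation by their suffix, among them those that stand for Cct2, Cct3 and Cct4. The exception was another of these 10, a probe set of Cct4 with 120.2 units after CCR4b RNAi and 110.1 in the control.

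**Figure D2:**
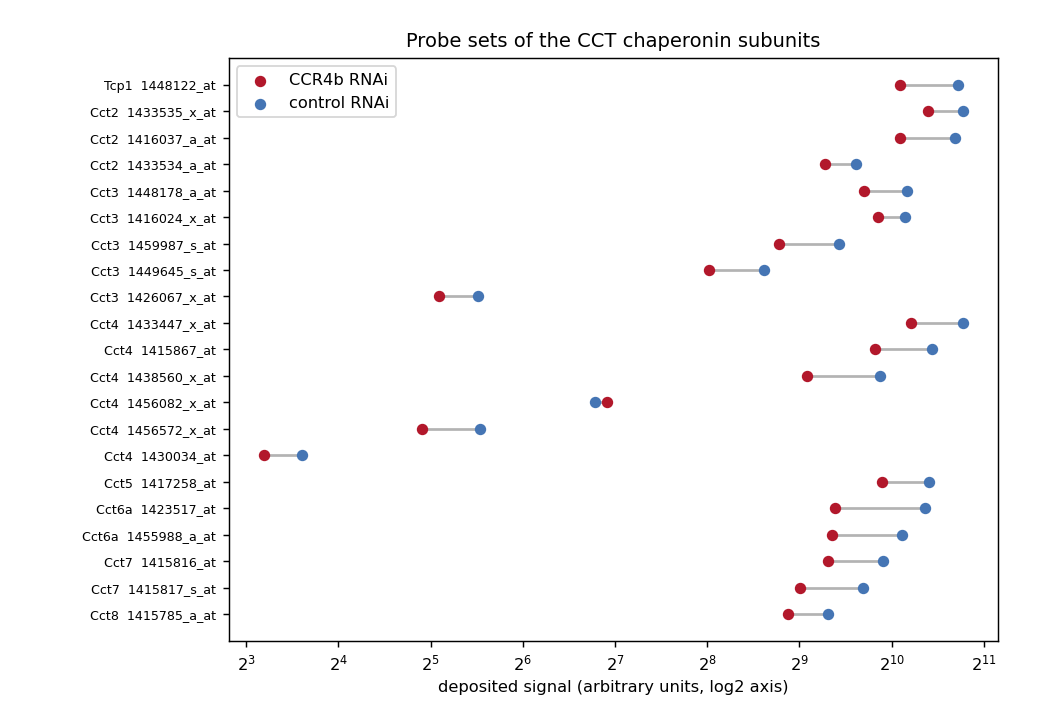
Deposited signal (x axis, log2 scale, arbitrary units) of each measured probe set of the 8 CCT subunits on the CCR4b RNAi array (red) and on the control RNAi array (blue). The red point lies left of the blue one for 20 of 21 probe sets, and the exception is a Cct4 probe set at 120.2 units after CCR4b RNAi and 110.1 units in the control.

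All 8 subunits fell in the brightest signal class, in which the median of all genes was itself -0.17 and 69.5% of 1191 genes had a log2 ratio below 0. Relative to that class median, the subunits had a median of -0.37, and all 8 were below it. The class held 19 members in all. Of these 19, 5 were at least 1.5-fold lower, where 11.8% of the class were, 0 were 1.5-fold higher, where 5.29% were, and 18 had a log2 ratio below 0. Without the chaperonin, 2 of the 11 remaining bright members were 1.5-fold lower, and their median was -0.43, or -0.26 relative to the class. The robust SD of log2 ratios in this class was 0.36, and the single subunits stood between percentile 2.69 (Cct6a) and percentile 38.2 (Cct3) of its genes. Cct6b, the zeta paralogue known from testis, and Cct8l1 stayed below the floor on both arrays.

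**Figure D3:**
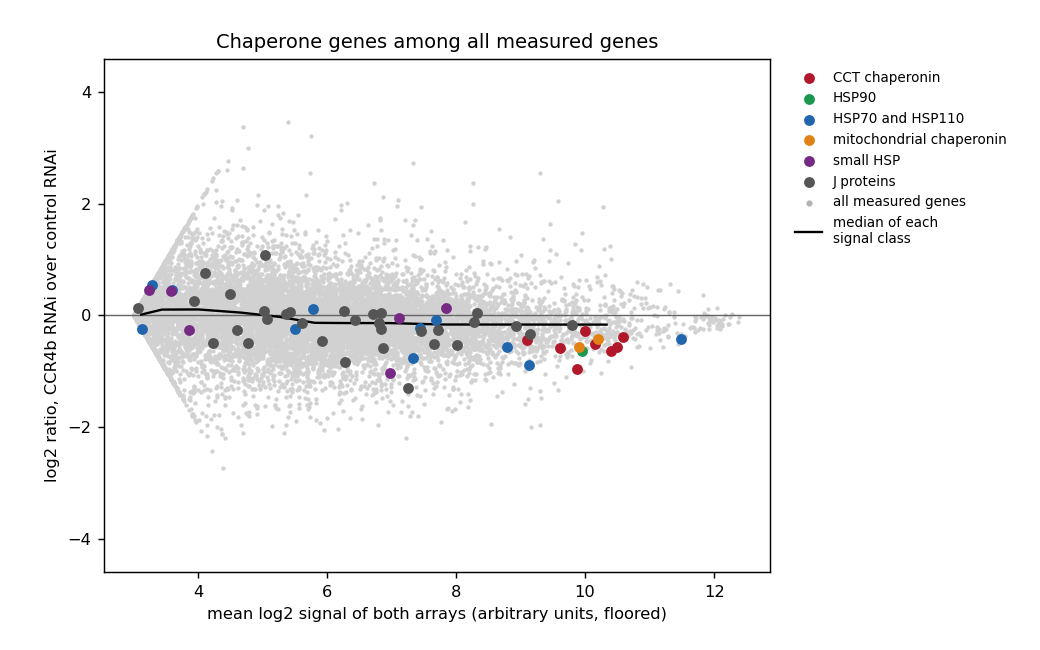
Log2 ratio (y axis, CCR4b RNAi over control RNAi) against the mean log2 signal of both arrays (x axis) for all measured genes (grey) and for the chaperone genes coloured by role. The black line joins the medians of the 10 signal classes, which reach -0.17 at the bright end, and the 8 CCT subunits (red) all lie below it.

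Among the HSP90 and HSP70 genes, Hspa9, Hspa14 and Hsp90aa1 were at least 1.5-fold lower, while the heat-inducible Hspa1b and Hsph1 differed by under 1.5-fold. Hsp90aa1, which encodes the inducible cytosolic HSP90 alpha, read 791 units after CCR4b RNAi and 1236 units in the control. On its brightest probe set it was 1.56-fold lower (log2 ratio -0.64), and the next were 1.74-fold and 1.57-fold lower. Its log2 ratio was -0.50 after quantile normalization and -0.48 after the loess correction, both short of 1.5-fold. Hspa8, the constitutive cytosolic HSP70, read 2466 units after CCR4b RNAi and 3315 units in the control and was 1.34-fold lower (log2 ratio -0.43). Its other bright probe sets had log2 ratios of -0.27 and -0.19. Hspa1b, the heat-inducible HSP70 whose promoter is shown above, read 200.0 units after CCR4b RNAi and 212 units in the control, a log2 ratio of -0.09 that turned to 0.08 after the loess correction. Its dimmer probe sets had -0.54 and -0.34, and they may also detect its near-identical neighbour Hspa1a, whose own probe set stayed below the floor on both arrays. Hsph1, the heat-inducible HSP110, read 161 units after CCR4b RNAi and 187 units in the control (log2 ratio -0.22).

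Hspa9 and Hspa14 were the members of the HSP70 and HSP110 group past 1.5-fold, 2 of 11 measured, a share near the background of 14.6%. Hspa9, which encodes the mitochondrial HSP70 mortalin, read 413 units after CCR4b RNAi and 763 units in the control. It was 1.85-fold lower (log2 ratio -0.89), and its next probe set, at 253 units after CCR4b RNAi and 588 units in the control, was 2.32-fold lower. The calls of Hspa9 held under each of the 8 alternatives. Hspa14 encodes the HSP70 of the ribosome-associated complex, in which it pairs with the J protein encoded by Dnajc2 at the exit of the nascent chain. It read 123 units after CCR4b RNAi and 209 units in the control, 1.70-fold lower (log2 ratio -0.77), but a dimmer probe set read 27.5 units after CCR4b RNAi and 24.2 units in the control, and the median of its probe sets was -0.29. Its partner Dnajc2 read 57.9 units after CCR4b RNAi and 103 units in the control and was 1.78-fold lower, and 1.68-fold lower by a second probe set. Both of these Dnajc2 probe sets are open to cross-hybridisation.

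The HSP110 genes, whose products act as exchange factors for HSP70, did not differ in 1 direction. Hspa4 was 1.48-fold lower by its brightest probe set (363 units after CCR4b RNAi and 536 units in the control) but had log2 ratios of 0.05 and 0.07 on its dimmer ones. Hspa4l had a log2 ratio of 0.11 (57.5 units after CCR4b RNAi and 53.1 units in the control), and its probe sets ranged from -0.12 to 1.01. Hspbp1, a further exchange factor of HSP70, read 47.0 units after CCR4b RNAi and 72.6 units in the control on its only probe set, 1.54-fold lower. The call of Hspbp1 was lost after quantile normalization and after the loess correction. Hspa2, known from testis, had a log2 ratio of -0.25 (41.7 units after CCR4b RNAi and 49.5 units in the control). The remaining members of the family were close to the floor. Hspa12a had 14.1 units after CCR4b RNAi and 10.3 units in the control, Hspa12b had 11.7 units after CCR4b RNAi and was below the floor in the control (at least 1.45-fold higher), and Hspa1l was below the floor after CCR4b RNAi and had 9.62 units in the control (at least 1.19-fold lower).

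The mitochondrial chaperonin genes Hspd1 (HSP60) and Hspe1 (HSP10), which share the promoter shown above, were both lower and short of 1.5-fold on their brightest probe sets. Hspd1 read 1011 units after CCR4b RNAi and 1358 units in the control, a log2 ratio of -0.43. Hspe1 read 788 units after CCR4b RNAi and 1173 units in the control, a log2 ratio of -0.57, and its second probe set, at 234 units after CCR4b RNAi and 385 units in the control, was 1.65-fold lower. Over the 9 mitochondrial members the median log2 ratio was -0.26, with Hspa9 and the J protein gene Dnaja3 at least 1.5-fold lower (2 of 9, background 14.6%) and 0 higher. Dnajc15 and Dnajc30, J proteins of the inner mitochondrial membrane, had log2 ratios of -0.26 and -0.24, and Dnajc11, of the cristae-organising machinery, had 0.08. The 7 J proteins of the ER had a median of -0.07, and the remaining 46 measured members, of the cytosol, nucleus or other sites, had -0.26.

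Small heat shock protein genes, grouped by symbol, spread in both directions, with a median log2 ratio of 0.05 over 6 measured genes. Hspb6, which encodes HSP20, read 88.0 units after CCR4b RNAi and 179.9 units in the control on its only probe set. It was 2.04-fold lower (log2 ratio -1.03), the second lowest ratio of all members, and the call held under each alternative. Hspb8, whose product works with BAG3, read 136 units after CCR4b RNAi and 140.1 units in the control, and its direction turned with the scaling. Hspb11, also known as the intraflagellar transport protein IFT25, had a log2 ratio of 0.14 (241 units after CCR4b RNAi and 219 units in the control). Hspb11 counts here by its symbol only, and the group median lies between it and Hspb8 (-0.04). Hspb1 (13.2 units after CCR4b RNAi and 15.9 units in the control), Hspb7 (13.9 units after CCR4b RNAi and 10.3 units in the control) and Hspb2 (11.1 units after CCR4b RNAi, below the floor in the control) were near the floor. Hspb3 and Hspb9 were below it on both arrays. Hspb2 counted as measured only through the CCR4b RNAi array, so its ratio could not be below 0. Without Hspb2 the middle gene of the group is Hspb8 (-0.04), so the sign of the group median rests on Hspb2.

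J protein genes, of which 32 of 40 were measured, had a median log2 ratio of -0.14, close to that of all genes. Past 1.5-fold were 3 lower and 2 higher genes (background 14.6% and 11.3%). Dnajc9, a J protein that is also a chaperone of histone H3 and H4, read 97.0 units after CCR4b RNAi and 240.4 units in the control on its only probe set. It was 2.48-fold lower (log2 ratio -1.31), the lowest ratio of the 62 measured members, at percentile 1.93 of the genes in its signal class. Dnajc2, described above, came next among the J proteins. Dnaja3, also called TID1, a partner of mortalin in mitochondria, read 95.2 units after CCR4b RNAi and 143 units in the control, just past the threshold (log2 ratio -0.59), and 1.57-fold lower by the other probe set. Its call was lost under 3 of 8 alternatives.

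The 2 higher J protein genes were dim. Dnajc25, a J protein of the ER membrane, read 47.6 units after CCR4b RNAi and 22.6 units in the control on its only probe set and was 2.11-fold higher (log2 ratio 1.08). With the floor at the 75th percentile its log2 ratio was 0.41. Dnajb5, a cytosolic J protein, read 22.4 units after CCR4b RNAi and 13.2 units in the control, 1.69-fold higher, and a second probe set was 1.55-fold higher. Next to the threshold on the lower side stood Dnajc17, of the spliceosome, at 215 units after CCR4b RNAi and 309.8 units in the control (log2 ratio -0.53), with 0.56 on a dim probe set. On the higher side the nearest was Dnajc28, at 25.7 units after CCR4b RNAi and 19.7 units in the control (log2 ratio 0.38). A dimmer probe set of Dnajc28 had -0.32 (13.3 units after CCR4b RNAi and 16.6 units in the control).

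The general J proteins of the cytosol showed small differences. All 4 Dnaja genes, the mitochondrial Dnaja3 included, had log2 ratios below 0, from -0.59 for Dnaja3 to -0.17 for Dnaja2. Of all measured genes, 56% had a log2 ratio below 0. Of the 12 measured Dnaja probe sets, 4 were at or above 0, among them probe sets of Dnaja1 (log2 ratio 0.12) and Dnaja4 (0.43). Dnaja1 read 458 units after CCR4b RNAi and 523 units in the control (log2 ratio -0.19). Dnajb1, the heat-inducible HSP40, read 159.6 units after CCR4b RNAi and 195 units in the control (log2 ratio -0.29) and -0.18 on its second probe set. Dnajb6, a suppressor of polyglutamine aggregation with the 3-unit motif in its promoter, had 299 units after CCR4b RNAi and 325 units in the control, and its direction turned with the scaling. Dnajb4 had a log2 ratio of 0.05 on its brightest probe set and -0.41 and -0.50 on its dimmer ones. Dnajc7, which has TPR repeats that bind HSP70 and HSP90, read 170.3 units after CCR4b RNAi and 242 units in the control (log2 ratio -0.51). Dnajc8, of the spliceosome, was 1.27-fold lower at 501 units after CCR4b RNAi and 634 units in the control. Other measured Dnajc genes, among them Dnajc5 (the cysteine string protein), Dnajc13 (of endosomes) and Dnajc24 (of diphthamide synthesis), had log2 ratios between -0.47 and 0.38.

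Not measured were 8 J protein genes, Dnajb3, Dnajb7, Dnajb13, Dnajc5b, Dnajc5g, Dnajc6, Dnajc22 and Dnajc27. Dnajc6 encodes auxilin, known from neurons. Dnajc27 had a dimmer probe set that reached 10.6 units after CCR4b RNAi and lay below the floor in the control. With the other 5 genes named above as below the floor on both arrays, this accounts for the 13 members without a ratio.

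Repeat readings of 1 gene by several probe sets agreed for some members and not for others. Of 39 members with at least 2 measured probe sets, 18 had the same sign on all of them, and 17 had probe sets over 1.5-fold apart. Hsp90aa1, Cct2, Cct3, Cct6a, Cct7, Hspe1, Dnaja3 and Dnajc2 had all probe sets lower. Dnaja2 had log2 ratios of -0.17, -0.30 and 0.16 and, on 1 probe set with 55.5 units after CCR4b RNAi and 26.6 units in the control, of 1.06. Dnajc14 had -0.47 and -0.28 but 0.99 on a probe set with 59.2 units after CCR4b RNAi and 29.8 units in the control. Dnajb14 had -0.07 (32.9 units after CCR4b RNAi and 34.4 units in the control) and 0.90 (18.9 units after CCR4b RNAi and 10.1 units in the control). Probe sets of a gene lie in different parts of its transcripts, and which transcripts each of them detects was not tested.

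**Figure D4:**
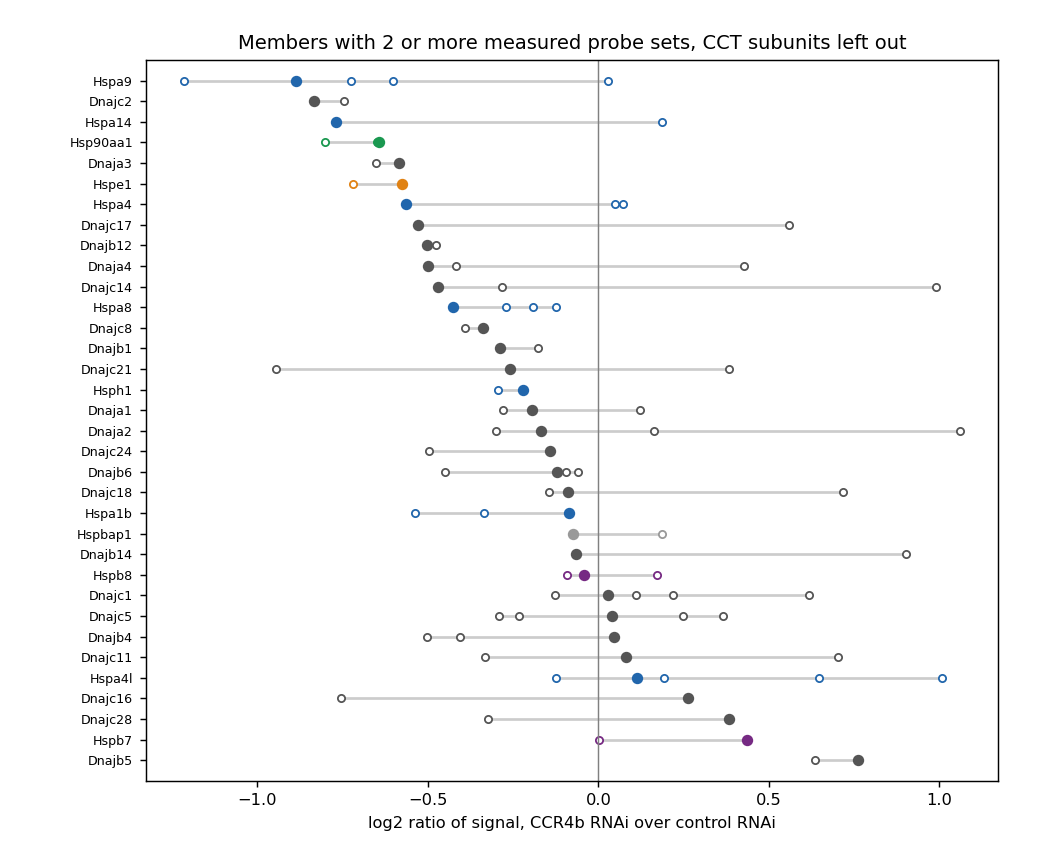
Log2 ratio (x axis, CCR4b RNAi over control RNAi) of each measured probe set of the members with 2 or more of them, CCT subunits left out, in 1 row per gene. Filled points are the probe sets that stand for their gene, open points the others; Hsp90aa1, Dnajc2 and Dnaja3 lie wholly left of 0, while Dnaja2, Dnajc14 and Hspa4l reach about 1.

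Partners of these chaperones were examined as lists. The list of HSP90 co-chaperones holds genes that load clients or pace the ATPase of HSP90 and genes with other roles, such as Ruvbl2 and Tomm70a. Its median log2 ratio was -0.54 over 22 measured genes. At least 1.5-fold lower were 9 of the 22 (background 14.6%), and 0 were as much higher (11.3%). The other 13 lay within 1.5-fold, among them Cdc37 (log2 ratio -0.11), Ahsa1 (-0.39) and Stip1 (-0.56). Ruvbl2, an AAA+ ATPase of the R2TP co-chaperone complex, had the lowest ratio, with 131 units after CCR4b RNAi and 293 units in the control (2.23-fold lower). Tomm70a, the mitochondrial import receptor that docks HSP70 and HSP90, read 99.1 units after CCR4b RNAi and 182 units in the control (1.84-fold lower) and was between 1.72-fold and 1.84-fold lower on its 4 probe sets. Rpap3, the HSP90-binding subunit of R2TP, read 38.1 units after CCR4b RNAi and 68.8 units in the control (1.81-fold lower). The median of this list stayed between -0.39 and -0.64 over the alternatives.

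Prefoldin delivers nascent actin and tubulin to CCT, and phosducin-like proteins modulate it. The list of these genes also holds the prefoldin-like genes Uxt, Uri1 and Pdrg1. Its median log2 ratio was -0.44 over 12 measured genes. Of these, 3 were at least 1.5-fold lower (background 14.6%) and 0 were higher by that much (11.3%). With both arrays set to a common median 5 were lower (background 19%), and after quantile normalization (13%) or the loess correction (12.6%) 1 was. The 3 lower genes were Uxt, a prefoldin-like subunit (39.9 units after CCR4b RNAi and 69.6 units in the control), Pdcl, a phosducin-like protein (72.6 units after CCR4b RNAi and 115 units in the control, with 66.6 units after CCR4b RNAi and 76.2 units in the control on a second probe set), and Pfdn1 (130 units after CCR4b RNAi and 197 units in the control), at 1.75-fold, 1.59-fold and 1.52-fold. Of the actin and tubulin genes, clients of CCT, 13 were measured, 3 were at least 1.5-fold lower (background 14.6%) and 1 was higher by that much (11.3%). Tubg1, gamma-tubulin, had 31.3 units after CCR4b RNAi and 79.5 units in the control, Tubb6 had 167 units after CCR4b RNAi and 347 units in the control, Tubb4b had 281 units after CCR4b RNAi and 577 units in the control with other directions on dim probe sets, and Tubb2b was higher, with 69.1 units after CCR4b RNAi and 28.1 units in the control. The BAG proteins, exchange factors of HSP70, had a median of -0.29 over 6 genes and 0 past 1.5-fold in either direction. Bag3, a target of HSF1 like Hspa1b, read 104 units after CCR4b RNAi and 87.4 units in the control.

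Among factors that bind heat shock elements or their regulators, 3 of 5 genes were measured besides the members. Hsf4 was 1.59-fold lower at 9.03 units after CCR4b RNAi and 14.3 units in the control, close to the floor. Hsbp1, an HSF1-binding protein, read 686 units after CCR4b RNAi and 745 units in the control, and Hsf2 read 11.0 units after CCR4b RNAi and was below the floor in the control. The ER chaperone list, which holds the ER genes that the rule left out, had a median of -0.34 over 19 measured genes, with 3 (Pdia4, Manf and Creld2) at least 1.5-fold lower, a share near the background of 14.6%. The 6 left-out genes that have such a probe set had a median of -0.08, and 0 were past 1.5-fold. The mitochondrial chaperones and proteases had a median of -0.34 over 13 genes. At least 1.5-fold lower were 5 of them (background 14.6%), and 2 after quantile normalization (13%) or the loess correction (12.6%). The lowest were the protease gene Lonp1 (78.2 units after CCR4b RNAi and 144 units in the control, 1.84-fold), Clpp (138 units after CCR4b RNAi and 234 units in the control, 1.69-fold) and Trap1, the mitochondrial HSP90 (173 units after CCR4b RNAi and 278 units in the control, 1.61-fold). Relative to the medians of their signal classes, the median was -0.39 for the HSP90 co-chaperones (16 of 22 below) and -0.27 for the prefoldin list (10 of 12). On that scale it was -0.17 each for the ER (10 of 19), mitochondrial (8 of 13) and BAG lists (4 of 6). With 1 array per group, differences between these lists and the members were not tested.

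**Figure D5:**
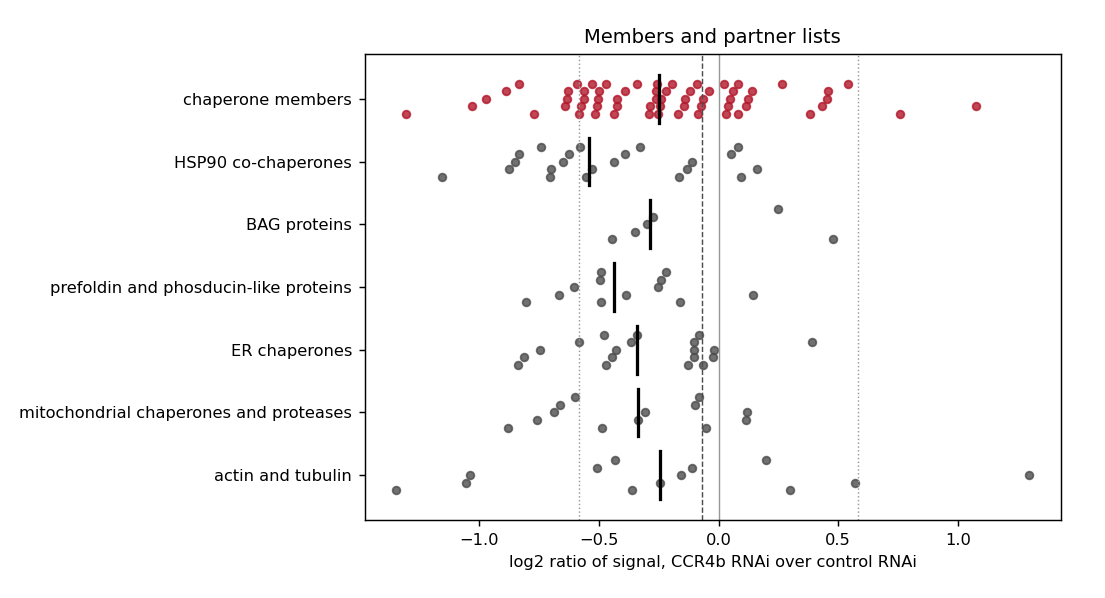
Log2 ratio (x axis, CCR4b RNAi over control RNAi) of each measured member (red, top row) and of each measured gene of 6 partner lists (grey), with black bars for medians, a dashed line for the median of all measured genes and dotted lines at 1.5-fold. The bars stand at -0.25 for the members, -0.54 for the HSP90 co-chaperones and -0.44 for the prefoldin list; the HSF factors, of which 3 were measured, are not drawn.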

How the data were processed

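Total RNA of 2 NIH3T3 cultures was measured on Affymetrix mouse arrays, 1 per group, grouped by the knockdown label. The deposited values are probe-set intensities; the authors made them in GCOS with a global normalization, per the series' design text. The sources used here do not state the version, the target value or detection calls. Of 45101 probe sets, 34958 have 1 gene symbol, 932 several, and 9211 are unnamed here. All 75 members matched a RefSeq gene of GRCm38.p6.

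Signals were floored at the 50th percentile of both arrays (8.07 units) and log2 ratios taken with Python 3.11.15, pandas 2.3.3 and numpy 2.4.6; statsmodels 0.14.6 gave the loess. Where 1 array was below the floor, the ratio is a bound. Probe sets ending in _x_at or _s_at were counted as open to cross-hybridisation. Named were all measured members of the chaperonin, HSP90, HSP70, HSP110 and small HSP groups, J proteins past 1.5-fold and those nearest to it, and up to 3 genes per direction of each list past 1.5-fold. Further J proteins, Bag3, Hsbp1 and Hsf2 were named after their values were seen. Array number limits the precision. The procedure was tested on simulated data. Members and lists were chosen with earlier results of these data known. Alternatives were 3 scalings, 3 floor settings, the median of a gene's probe sets, and leaving out probe sets open to cross-hybridisation.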

Additional observations from a re-analysis of the deposited data

How the results depend on the processing

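Each result was recomputed under 8 alternatives. With no replicates, a median was taken as moved beyond 0.1 log2 units and a count beyond 1.5 times. All CCT subunits measured had log2 ratios below 0 under every alternative, and the medians of the members, of the CCT, HSP70 and J protein groups and of the HSP90 co-chaperones kept their sign. Of 62 measured members, 11 turned direction under another scaling, all with log2 ratios of at most 0.12 in size. With both arrays set to a common median, 19 members, 7 J protein, 5 CCT and 5 prefoldin-list genes were at least 1.5-fold lower. Of all genes, 19% were. After quantile normalization, 6 members, 1 CCT, 2 mitochondrial and 1 prefoldin-list gene were lower, and 1 BAG and 2 actin or tubulin genes were higher. Of all genes, 13% were then lower and 12% higher. The medians were then -0.15 for the members, 0.19 for small HSP, -0.038 for J protein, -0.42 for CCT, -0.22 for ER, -0.40 for HSP90 co-chaperone, -0.18 for mitochondrial, 0.032 for HSF and -0.26 for prefoldin-list genes. After the loess correction, 7 members, 1 CCT, 2 mitochondrial and 1 prefoldin-list gene were lower, and 1 BAG and 2 actin or tubulin genes were higher. Of all genes, 12.6% were then lower and 12.3% higher. The medians were -0.13 for the members, 0.21 for small HSP, -0.015 for J protein, -0.39 for CCT, -0.18 for BAG, -0.19 for ER, -0.39 for HSP90 co-chaperone, -0.17 for mitochondrial, 0.051 for HSF and -0.26 for prefoldin-list genes. Both corrections take out the lower ratios of bright genes. With the floor at the 25th percentile, 8 of 73 measured members (1 HSP70, 3 small HSP and 4 J protein genes) were higher, where 19.8% of all genes were. At that floor 2 HSF genes were higher. Lower were 7 J protein and 6 actin or tubulin genes, where 21.6% of all genes were lower. The medians were 0.29 for small HSP, -0.43 for actin and tubulin and 0.27 for HSF genes. With the floor at the 75th percentile, 0 of 46 measured members (and so 0 J protein genes) were higher, where 6.48% of all genes were. There 0 HSF genes were lower, where 14.1% of all genes were. The medians were -0.23 for ER and -0.36 for actin and tubulin genes. Without a floor, on log2(signal + 1), 5 of 62 members (1 HSP70 and 1 small HSP gene among them) were higher, where 15.3% of all genes were, 1 HSF gene was higher, and the actin and tubulin median was -0.36. With the median over a gene's probe sets, 1 HSP70 gene was lower and 1 ER gene higher, where 12.7% and 10.2% of all genes were. The medians were -0.21 for ER and -0.34 for prefoldin-list genes. Without probe sets open to cross-hybridisation, 5 CCT genes were lower, where 14.8% of all genes were, and the prefoldin-list median was -0.34. Beyond these constructions, the cause of each shift was not tested. Dim signal limits what can be said of Hspb1, Hspb2, Hspb7, Hspa12a, Hspa12b, Hspa1l and Dnajb8, where the floor sets the ratio or noise is largest. No paired analysis was possible because each group holds 1 array.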
